A study of Mus musculus with 6 samples.

Results

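A set of 6 genes that regulate or mark blood progenitors were followed through the deposited expression table: Myb, Kit, Cd34, Flt3, Sox4 and Meis1. They were taken by gene symbol, and all 6 were found among the 17528 listed genes and among the 14304 that passed the filter on low values. The RNA came from CD11b+F4/80+ cells sorted as macrophages out of the femur marrow of BALB/c mice with the genotype RAG2-/-γc-/-, which all groups share and which lacks mature lymphocytes. The mice had either no graft (day 0) or had been given Raji cells, a human Burkitt lymphoma line, into a vein 4 or 18 days earlier (day 4, day 18). Each of the 3 groups had 2 libraries, which are called A and B after the table's columns. No ungrafted mice were sampled at the later days, so graft, injection and elapsed time cannot be told apart. Whether libraries A and B stem from different animals is not stated in the labels, nor are the age and number of mice.

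Blood cells descend from stem and progenitor cells in the marrow, and a small set of regulators keeps those cells immature and dividing. Myb is a transcription factor of dividing progenitors, and Meis1 is a homeodomain factor that acts with Hox proteins in stem cells and early progenitors. Sox4 is a transcription factor of lymphoid and early myeloid progenitors. Kit and Flt3 are receptor tyrosine kinases for stem cell factor and Flt3 ligand, and Cd34 is a sialomucin on the surface of progenitors and of vessel lining. Levels of these genes usually fall as cells mature into macrophages or granulocytes.

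Between 20073063 and 23214566 reads per library were assigned to listed genes, and levels are given as reads per 1000000 assigned reads (RPM). In bulk RNA such as this, fewer cells of a type and less RNA per cell cannot be told apart. All 10 macrophage markers were listed, with a summed level of 2701 to 2721 RPM at day 0, 2564 to 2588 at day 4 and 2857 to 2861 at day 18. Most of that sum was Itgam, with 2229.4 and 2246.5 RPM at day 0 and 1995.1 and 1967.5 at day 18. Csf1r went from 151 and 158 RPM at day 0 to 413 and 432 at day 18. Of the 10, 3 rose and 4 fell at day 4, and 7 rose and 3 fell at day 18 against day 0. The 10 genes taken as markers of mature neutrophils summed to far more. Their sum was 139349 to 139413 RPM at day 0, 124111 to 127901 at day 4 and 109575 to 110362 at day 18. Ngp, S100a9, S100a8 and Ltf gave most of it. Against day 0, 0 rose and 8 fell at day 4, while 1 rose and 7 fell by day 18. From day 4 to day 18, 4 rose and 4 fell, so the lower sum does not stand for each gene. Retnlg had 582.4 and 555.6 RPM at day 0 but reached 713.7 (A) and 704.9 (B) by day 18. The neutrophil stage behind these reads was not tested. Of 12 stem and progenitor markers, 10 were listed. Mecom and Slamf1 were not listed, and Ly6a stood at 0 in 1 library. The progenitor sum was 202.8 to 208.6 RPM at day 0, 240.6 to 260.5 at day 4 and 203.5 to 212.9 at day 18, and most of it was Myb and Kit.

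The 6 genes differed widely in level at day 0. On the scale of RPM per kilobase of annotated exon, Myb stood at 15.97 ± 0.371 (SD, n = 2 here and below), Kit at 5.18 ± 0.224, Flt3 at 0.476 ± 0.0377, Sox4 at 0.246 ± 0.0453, Cd34 at 0.150 ± 0.00454 and Meis1 at 0.0627 ± 0.0134. No neighbours in this order overlapped within their SD at day 0. At day 18 the means kept the order, but Cd34 (0.221 ± 0.0224) and Meis1 (0.188 ± 0.0347) lay within their spread of each other. The table's own RPKM values divide by the whole gene span with its introns, and on that scale Myb led at 3.96 ± 0.0920 and Meis1 came last at 0.00474 ± 0.00102, while Flt3 (0.0421 ± 0.00334) ranked after Sox4 and Cd34. The files give totals per gene, so where in a gene the reads lie is not shown. Myb and Kit were covered by 939 to 3925.9 reads per library, and the other 4 genes by 13 to 109 reads per library, so their values carry a wide counting error.

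**Figure D1:**
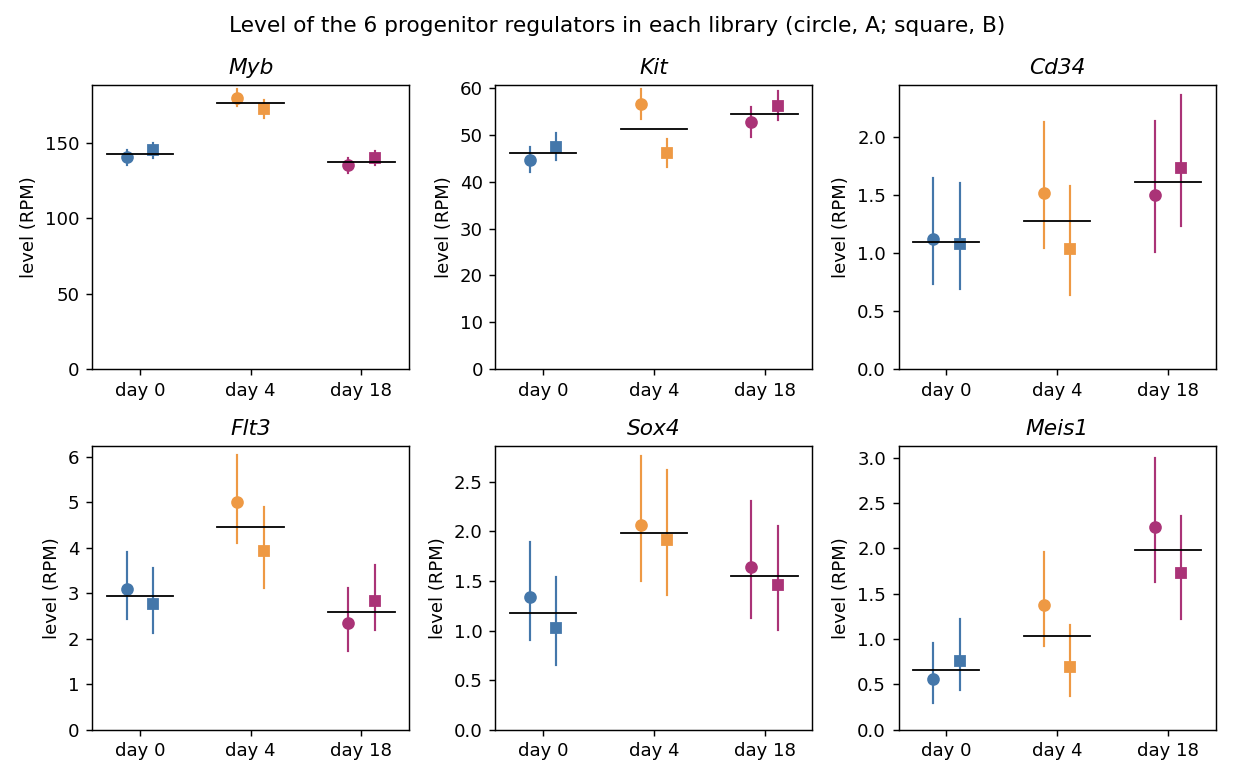
Level (RPM, vertical axis from 0) of each of the 6 genes in every library at day 0, day 4 and day 18; circles are library A, squares library B, black bars the mean of 2 libraries, and coloured lines the exact 95% Poisson interval of the reads, which covers counting error only. Myb at day 4 (172 and 179.96 RPM) stands above its other 4 libraries, and Meis1 is highest at day 18 (1.73 and 2.24 RPM).

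Myb was higher at day 4 than at either other time. Its level was 140.4 RPM in day 0 A and 145 in day 0 B, 179.96 in day 4 A and 172 in day 4 B, and 135 in day 18 A and 139.9 in day 18 B. Both day 4 libraries lay above the other 4, and both day 18 libraries lay just under those of day 0. After scaling between libraries by trimmed mean of M values (TMM), the log2 fold change was 0.25 ± 0.0408 (standard error) at day 4 against day 0 (limma, adjusted p = 8.85e-05), and -0.39 ± 0.0408 at day 18 against day 4 (adjusted p = 2.10e-08). The rise at day 4 was thus 1.19-fold. That call ended with 1 spread for all levels (adjusted p = 0.180) and on the RPKM scale (adjusted p = 0.0933). From day 0 to day 18 Myb fell by 0.14 ± 0.0408 on the log2 scale (adjusted p = 0.00859), from 147 ± 3.74 to 134 ± 3.51 RPM after scaling. The call at day 18 against day 0 ended with library totals in place of TMM (-0.05, adjusted p = 0.344). It ended too with 1 spread for all levels (adjusted p = 0.161), on the RPKM scale (adjusted p = 0.0885), without day 0 B (log2 fold change -0.12) and without day 18 A (-0.11).

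Myb lies on the minus strand of chromosome 10, from 21124935 to 21160984 in mm10. An antisense gene, Gm26577, lies inside it on the plus strand from 21145094 to 21154374. Neither gene came out at whole reads, so part of their reads may have been divided between genes. Gm26577 was assigned 130.6 (A) and 176 (B) reads on day 0, then 104 and 82.1 on day 4, then 60.3 and 119 on day 18. For Myb the matching pairs were 3258.4 and 3243.9 reads, 3925.9 and 3512.9 reads, and 2710.8 and 3160.8 reads. The antisense counts were thus small beside those of Myb and did not share its peak at day 4.

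The start regions of Myb and Flt3, the pair that fell between day 4 and day 18, are shown with that of Meis1, which rose by day 18. Each is the RefSeq window from 250 bases before to 50 bases after the gene's start (GRCm38.p6, read 5′ to 3′ on the gene's own strand). The windows are chr10:21160935-21161234 (minus strand) for Myb, chr5:147400440-147400739 (minus strand) for Flt3 and chr11:19018920-19019219 (minus strand) for Meis1. Capitals mark exact matches, on either strand, to 7 short motifs. The motif of Myb proteins was searched as AACNG, and that of GATA factors as AGATAA. The Runx motif was searched as TGTGGT, and the Meis motif as TGACAG. The Sox motif was searched as AACAAAG, the Ets motif as CGGAAG, and the TATA box as TATAAA.

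Myb: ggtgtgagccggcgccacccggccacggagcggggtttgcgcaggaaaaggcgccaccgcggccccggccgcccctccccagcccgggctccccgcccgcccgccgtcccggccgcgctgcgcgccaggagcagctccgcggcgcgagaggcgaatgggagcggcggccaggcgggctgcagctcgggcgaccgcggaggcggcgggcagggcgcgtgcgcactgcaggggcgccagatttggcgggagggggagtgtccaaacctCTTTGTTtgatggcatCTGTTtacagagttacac
Flt3: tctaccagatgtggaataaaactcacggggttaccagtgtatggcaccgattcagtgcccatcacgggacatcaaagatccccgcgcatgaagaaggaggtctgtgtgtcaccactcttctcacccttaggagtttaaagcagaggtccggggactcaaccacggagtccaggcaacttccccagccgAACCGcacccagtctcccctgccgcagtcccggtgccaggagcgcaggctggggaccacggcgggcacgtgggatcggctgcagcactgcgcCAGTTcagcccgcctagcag
Meis1: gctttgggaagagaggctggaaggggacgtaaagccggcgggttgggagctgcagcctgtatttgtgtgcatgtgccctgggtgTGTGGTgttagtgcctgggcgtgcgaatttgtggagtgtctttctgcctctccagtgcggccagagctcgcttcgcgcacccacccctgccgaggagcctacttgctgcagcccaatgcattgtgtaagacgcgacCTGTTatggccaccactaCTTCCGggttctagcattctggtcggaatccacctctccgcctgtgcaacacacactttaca

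The Myb window held 1 Sox match and 1 Myb match near its 3′ end, the Flt3 window held 2 Myb matches and none of the other motifs, and the Meis1 window held 1 match each to the Runx, Myb and Ets motifs. None of these matches overlapped another. The Myb motif is common: 80.3% of the 32841 RefSeq windows held it on either strand, against 16.8% for the Runx motif, 16.9% for Ets, 5.85% for Sox, 11.2% for GATA, 19.2% for Meis and 13.6% for the TATA box. The Myb window was 75% G and C, that of Flt3 61% and that of Meis1 58.3%, against a median of 52.7% over all windows. All 6 genes matched a window in the RefSeq table.

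The other Myb family genes did not pass the test at day 4. Mybl1, a paralogue best known from germ cells, stood at 13.5 ± 0.698 RPM at day 0, 11.03 ± 0.362 at day 4 and 8.72 ± 0.993 at day 18, and fell at day 18 against day 0 (-0.71 ± 0.139, adjusted p = 0.000168). Mybl2, the paralogue of the cell cycle, stood at 55.7 ± 2.64, 60.7 ± 2.26 and 52.8 ± 0.394 RPM. All 3 family genes fell between day 4 and day 18, Mybl1 by 0.37 and Mybl2 by 0.23 on the log2 scale. Myb kept that call whichever library was left out. For Mybl2 it ended without day 4 A (log2 fold change -0.20), without day 18 A (-0.22), with 1 spread for all levels (adjusted p = 0.103) and on the RPKM scale (0.0638). For Mybl1 it ended without day 0 A (log2 fold change -0.37), day 0 B (-0.37), day 4 A (-0.41), day 4 B (-0.34) or day 18 A (-0.25). The Mybl1 call ended too with library totals (adjusted p = 0.0767), a pseudocount of 1 (0.0510) and no filter on low values (0.0586). So it did with 1 spread for all levels (0.108), on the RPKM scale (0.120) and with only the 4 libraries of day 4 and day 18 (0.0787).

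Serine proteases and myeloperoxidase of neutrophil primary granules, which are made at the promyelocyte stage, rose at day 4 as Myb did. A list of 12 tested primary granule and other promyelocyte genes also holds Cebpe, Hdc, Igsf6, Serpinb1a and Nkg7. At day 4, 8 of the 12 rose and 2 fell, where 5.49% of all tested genes rose and 6.63% fell. The median log2 fold change of the list was 0.42, against 0.01 over all tested genes. Mpo, the myeloperoxidase of these granules, went from 1159.95 ± 0.521 RPM at day 0 to 1997 ± 3.35 at day 4 and 1442 ± 13.3 at day 18. Elane, neutrophil elastase, rose by 0.67 ± 0.0233 and Prtn3, proteinase 3, by 0.68 ± 0.0291 (adjusted p = 3.32e-17 and 2.21e-15). Between day 4 and day 18, 0 of the 12 rose and 10 fell, where 13.9% of all tested genes rose and 12.1% fell. At day 18 against day 0, where Myb fell, 6 of the granule list rose and 5 fell (18.0% and 17.2% of all tested genes). Mpo, Elane and Prtn3 stayed above day 0 (0.23 ± 0.0170, 0.28 ± 0.0233 and 0.23 ± 0.0291). Among 12 genes compiled as targets of Myb, 8 rose and 1 fell at day 4, and 2 rose and 8 fell between day 4 and day 18. The targets share Mpo, Elane, Prtn3 and Ctsg with the granule list. In the comparison of day 18 with day 0, 6 of the 12 targets rose and 2 fell. Gfi1, a repressor that directs granulocyte formation, was among them, with 103 ± 0.973, 139.6 ± 3.49 and 106 ± 7.35 RPM at day 0, day 4 and day 18.

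Cell cycle genes moved in both directions at day 4 and were mostly lower at day 18. Of 25 tested, 4 rose and 6 fell at day 4, where 5.49% of all tested genes rose and 6.63% fell. At day 18 against day 0, 24 fell and 0 rose, where 17.2% of all tested genes fell and 18.0% rose. With library totals in place of TMM 5 rose and 3 fell at day 4, and 22 fell and 0 rose at day 18. The proliferation antigen gene Mki67 fell by 0.23 ± 0.0194 at day 4 (adjusted p = 3.68e-09) and by 0.63 ± 0.0194 at day 18 (adjusted p = 1.75e-19), and Top2a, a topoisomerase of dividing cells, by 0.13 and 0.48. The total of 10 called cell cycle genes at day 4 was 6 without day 0 A or without day 4 A, and 3 without day 0 B. Cdc20, among the 4 that rose at day 4 (0.15 ± 0.0364, adjusted p = 0.00699), fell from there to day 18 (-0.50 ± 0.0364). Between day 4 and day 18, where Myb fell by 0.39, Mki67 fell by 0.41 ± 0.0194 and 23 of the 25 genes fell.

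**Figure D2:**
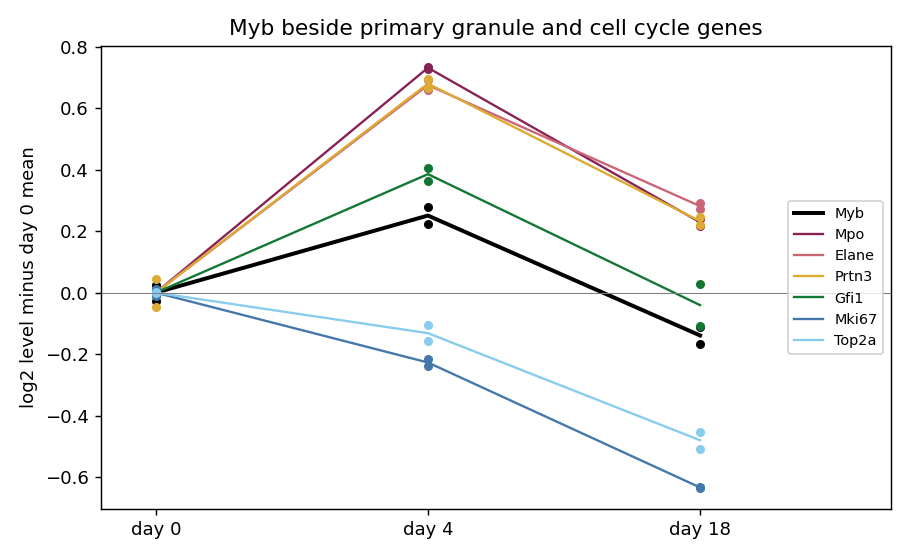
TMM-scaled log2 level minus the day 0 mean (vertical axis) of Myb, of the primary granule genes Mpo, Elane and Prtn3, of Gfi1 and of the cell cycle genes Mki67 and Top2a at the 3 times; points are libraries and lines join the means of 2. Myb and the granule genes peak at day 4, while Mki67 is 0.23 lower at day 4 and 0.63 lower at day 18. The cell cycle genes that rose at day 4 (4 of 25 tested, where 6 fell) are not drawn.

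Kit did not pass the test in any comparison. Its level was 44.7 RPM in day 0 A and 47.5 in day 0 B, 56.6 in day 4 A and 46.1 in day 4 B, and 52.8 in day 18 A and 56.1 in day 18 B. Day 4 A was the highest library of the 6 and day 4 B lay within the range of day 0. Day 4 thus overlapped the other groups. Both day 18 libraries lay above both of day 0, and 66.5% of all tested genes did not overlap in that comparison. The log2 fold change was 0.09 ± 0.0787 at day 4 (limma, adjusted p = 0.525) and 0.15 ± 0.0787 at day 18 (adjusted p = 0.139). With library totals in place of TMM the value at day 18 was 0.24 and passed (adjusted p = 0.0223). Kit lies on the plus strand of chromosome 5, from 75574916 to 75656722, with no overlapping annotated gene, and its reads were whole numbers, 939 to 1269 per library.

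Flt3, which marks lymphoid and dendritic cell progenitors among others, was lower at day 18 than at day 4. Its reads numbered 72 and 62 at day 0 (3.10 and 2.77 RPM), 109 and 80 at day 4 (4.997 and 3.92 RPM), and 47 and 64 at day 18 (2.34 and 2.83 RPM). Both day 4 libraries lay above the other 4, and before scaling the libraries of day 0 and day 18 overlapped. Libraries of day 4 did not overlap those of day 0 for 50.9% of all tested genes, nor those of day 18 for 58.8%. The log2 fold change was 0.53 ± 0.252 at day 4 against day 0 (limma, adjusted p = 0.197) and -0.26 ± 0.252 at day 18 against day 0 (adjusted p = 0.462), neither of which passed. Between day 4 and day 18 it fell by 0.79 ± 0.252 (adjusted p = 0.0201), to 0.578 of the day 4 level. That call ended with 1 spread for all levels (adjusted p = 0.0659) and on the RPKM scale (log2 fold change -0.26, adjusted p = 0.0650). It also ended without day 4 A (log2 fold change -0.62) and without day 18 A (-0.66). Flt3 lies on the minus strand of chromosome 5, from 147330741 to 147400489, and the antisense gene Gm26597, which is not listed, overlaps its start.

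The ligand genes of both receptors were listed. Kitl, which encodes stem cell factor, stood at 0.942 ± 0.130 RPM at day 0, 0.450 ± 0.0119 at day 4 and 0.631 ± 0.0466 at day 18. Flt3l, the Flt3 ligand gene, stood at 14.4 ± 1.69, 17.2 ± 0.889 and 15.9 ± 0.700 RPM. Neither passed in any comparison. Thpo, the thrombopoietin gene, was not listed. Cxcl12, the chemokine that holds progenitors in the marrow, fell at day 4 (-1.13 ± 0.210, adjusted p = 0.000411) and at day 18 (-1.53 ± 0.210, adjusted p = 1.41e-06) against day 0, from 9.35 ± 0.123 to 4.37 ± 0.209 and 3.44 ± 0.984 RPM. The 8 listed of 10 stromal markers, which include Cxcl12 and Kitl, summed to 12.5 to 12.6 RPM at day 0, 6.43 to 7.70 at day 4 and 5.84 to 8.52 at day 18. Cxcl12 alone gave 9.26 and 9.43 RPM of the sum at day 0, so the lower sums largely repeat its fall. Of the 5 tested markers 0 rose and 1 fell at day 4, and 1 rose and 1 fell at day 18 against day 0.

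Other receptors of the same structural class passed the test at day 18. Csf1r encodes the receptor for the macrophage growth factor Csf1 and rose by 0.39 ± 0.0349 at day 4 and 1.36 ± 0.0349 at day 18 against day 0 (adjusted p = 6.22e-09 and 3.79e-21). Its reads were not whole numbers. Pdgfrb, a receptor of mesenchymal cells, stood at 0.263 ± 0.00695 RPM at day 0 and 1.42 ± 0.318 at day 18 and rose there (1.98 ± 0.538, adjusted p = 0.00481). The call of Pdgfrb ended with 1 spread for all levels (adjusted p = 0.0851), on the RPKM scale (0.0885) and without day 18 A (log2 fold change 1.76). Pdgfra was listed but too low to be tested. Of 23 genes of Kit and Flt3 signalling, 3 rose and 2 fell at day 4, and 6 rose and 5 fell at day 18 against day 0, with medians of 0.02 and 0.05. Of all tested genes 5.49% rose and 6.63% fell at day 4, and 18.0% rose and 17.2% fell at day 18. The balance of the signalling genes depended on scaling: with library totals 6 rose and 1 fell at day 4, and 12 rose and 2 fell at day 18. Spred1 and Dusp6, inhibitors of the Ras and MAP kinase pathway, rose at day 18 (1.09 ± 0.112 and 0.51 ± 0.0468), as did the Src family kinase gene Lyn (0.31 ± 0.0296). The ubiquitin ligase gene Cbl, which turns over activated Kit, fell at day 4 (-0.21 ± 0.0273) and at day 18 (-0.31 ± 0.0273). The total of called signalling genes at day 4, 5, was 2 without day 0 A, 1 without day 0 B and 3 without either day 4 library. At day 18 the total of 11 was 7 without day 0 B or without day 18 B.

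Markers of other cells that carry Kit or Flt3 moved over the same days. Of 10 mast cell and basophil markers, 6 were listed, and their sum was 15.2 to 15.6 RPM at day 0, 38.1 to 39.4 at day 4 and 10.8 to 11.1 at day 18. The mast cell protease genes Cma1, Mcpt4, Tpsb2 and Tpsab1 were not listed. At day 4, 3 of the 6 rose and 0 fell, and between day 4 and day 18, 4 fell and 1 rose. All 10 dendritic cell markers were listed, with sums of 39.1 to 41.9, 46.6 to 49.9 and 49.6 to 51.4 RPM at day 0, day 4 and day 18. Tcf4 and Bst2 made up most of the sum at day 18, with 18.8 and 24.3 RPM and 19.1 and 16.5 RPM. Cd209a went from 8.79 and 10.8 RPM at day 0 to 5.28 and 3.94 at day 18. Of the 9 tested, 1 rose and 0 fell at day 4, and 2 rose and 3 fell at day 18 against day 0. Between day 4 and day 18, 2 rose and 2 fell. Of 10 B cell progenitor markers only 4 were listed, with Rag1 at 0 in all libraries of day 0 and day 4, and their sum was 5.17 to 7.42 RPM over the 6 libraries. The part of these cells in the levels of Kit and Flt3 was not tested.

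**Figure D3:**
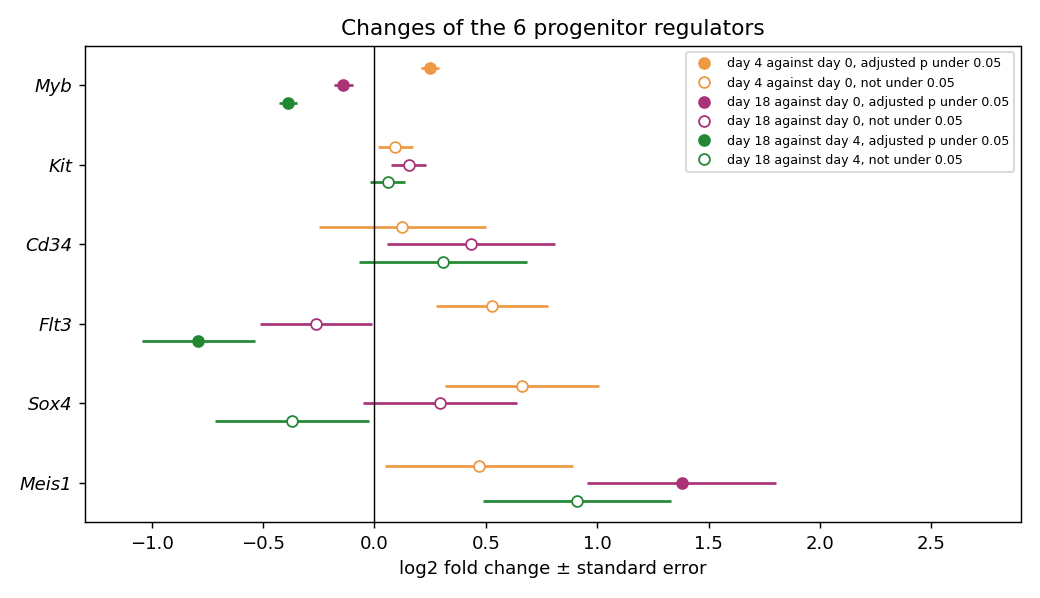
Log2 fold change with its standard error (horizontal axis) of the 6 genes in the 3 comparisons; filled points have an adjusted p under 0.05. Myb is filled in all 3 comparisons, Flt3 only at day 18 against day 4 (-0.79) and Meis1 only at day 18 against day 0 (1.38).

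Cd34 was near the lower limit of what the libraries could show. Its libraries held 26 and 24 reads at day 0 (1.12 and 1.07 RPM), 33 and 21 at day 4 (1.51 and 1.03 RPM), and 30 and 39 at day 18 (1.49 and 1.73 RPM). The day 4 libraries spanned those of day 0, and both day 18 libraries lay above day 0. Libraries of day 18 and day 0 did not overlap for 66.5% of all tested genes. The log2 fold change at day 18 against day 0 was 0.43 ± 0.375 (limma, adjusted p = 0.408), and at day 4 it was 0.13 ± 0.375 (adjusted p = 0.890). The exact 95% Poisson interval was 15.4 to 35.7 for the 24 reads of day 0 B and 27.7 to 53.3 for the 39 reads of day 18 B. Of its family, Podxl was not listed and Podxl2 was too low to be tested. Cd34 lies on the plus strand of chromosome 1, from 194938819 to 194961279, and overlaps the antisense gene Gm16897, which is not listed.

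Sox4 had its highest values at day 4 but did not pass the test. Reads numbered 31 and 23 at day 0 (1.34 and 1.03 RPM), 45 and 39 at day 4 (2.06 and 1.91 RPM), and 33 and 33 at day 18 (1.64 and 1.46 RPM). The 3 groups did not overlap. Taken 2 at a time, groups did not overlap for 50.9% (day 4 against day 0), 66.5% (day 18 against day 0) and 58.8% (day 18 against day 4) of all tested genes. The log2 fold change was 0.66 ± 0.346 at day 4 against day 0 (limma, adjusted p = 0.245), 0.30 ± 0.346 at day 18 against day 0 (adjusted p = 0.558) and -0.37 ± 0.346 at day 18 against day 4 (adjusted p = 0.497). Sox4 is a gene of 1 exon on the minus strand of chromosome 13, from 28948919 to 28953713, and the non-coding gene Gm26735, which is not listed, overlaps its 3′ part on the other strand. Of its close relatives, Sox11 was not listed, and Sox12 stood at 0.413 ± 0.330, 0.303 ± 0.220 and 0.393 ± 0.133 RPM at day 0, day 4 and day 18 and passed in no comparison.

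Meis1 was higher at day 18 than at day 0. Only 13 and 17 reads were found at day 0 (0.560 and 0.760 RPM), 30 and 14 at day 4 (1.38 and 0.687 RPM), and 45 and 39 at day 18 (2.24 and 1.73 RPM). Both day 18 libraries lay above the other 4, and the day 4 libraries differed, with day 4 A above and day 4 B within the range of day 0. The log2 fold change was 1.38 ± 0.424 at day 18 against day 0 (limma, adjusted p = 0.0119), or 2.60-fold, the largest of the 6 genes in any comparison. At day 4 against day 0 it was 0.47 ± 0.424 (adjusted p = 0.561), and at day 18 against day 4 it was 0.91 ± 0.424 (adjusted p = 0.124). The call at day 18 against day 0 ended with 1 spread for all levels (adjusted p = 0.0756). It ended too on the RPKM scale (log2 fold change 0.118, adjusted p = 0.101), without day 0 A (log2 fold change 1.183) and without day 18 A (1.201). Meis1 lies on the minus strand of chromosome 11, from 18879817 to 19018985, and 5 annotated non-coding genes lie inside it. Of these only Gm37818, on the same strand, was listed, with 0 reads in both day 0 libraries and in day 4 A, 2 in day 4 B, 7 in day 18 A and 2 in day 18 B.

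The relatives and partners of Meis1, the TALE homeodomain genes, moved in both directions. Meis2 and Pbx4 were not listed, and Meis3 was too low to be tested. Of 8 tested genes 0 rose and 2 fell at day 4, where 5.49% of all tested genes rose and 6.63% fell. At day 18 against day 0, 2 rose and 3 fell, where 18.0% of all tested genes rose and 17.2% fell. Pbx2 fell at day 18 (-0.22 ± 0.0357), and Tgif1, a repressor of transforming growth factor beta and retinoid responses, rose there from 7.02 ± 0.185 to 22.2 ± 0.0262 RPM (1.56 ± 0.135, adjusted p = 3.74e-10). Pknox2 fell at day 4 (-0.85, adjusted p = 0.000525) and at day 18 (-0.48, adjusted p = 0.0210). The calls of Pknox2 ended without day 0 B (log2 fold change -0.65 at day 4 and -0.28 at day 18), and that at day 18 without day 18 A (-0.32). Both also ended with 1 spread for all levels (adjusted p = 0.200 and 0.198) and on the RPKM scale (0.173 and 0.193). With library totals the call at day 18 ended (adjusted p = 0.0586). Without day 18 A, 3 of the family passed at day 18 in place of 5, and without day 0 B, 1 passed at day 4. Pbx3, Pknox1 and Tgif2 passed in no comparison. Of Hox genes, the partners of Meis1 in leukaemia, Hoxa7 and Hoxa9 were too low to be tested and Hoxa10 was not listed.

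The summed markers of endothelial cells, which carry Cd34, were highest at day 18. Of 10 such markers 7 were listed, with sums of up to 22.5 RPM at day 0, 25.8 to 27.0 at day 4 and 38.5 to 41.6 at day 18. Tek, Cldn5 and Robo4 were not listed, and the vessel cadherin gene Cdh5 stood at 0.0981 to 0.548 RPM in the 6 libraries. Of the 4 tested, 2 rose at day 18 against day 0 and 0 fell. These were the growth factor receptor gene Kdr, with 0.732 and 0.760 RPM at day 0 and 9.12 and 8.23 at day 18, and the adhesion gene Pecam1, with 4.09 and 4.61 RPM at day 0 and 13.7 and 12.4 at day 18. Tie1, a receptor gene that made up most of the sum at day 0, was highest at day 4 (17.6 and 17.7 RPM), with 15.9 and 15.7 RPM at day 18. Of 8 megakaryocyte and platelet markers, a lineage in which Meis1 is also active, 7 were listed, with sums of 59.4 to 65.7 RPM over the 6 libraries. Itgb3 alone gave 51.7 to 57.2 RPM of that sum, so it says little about the other markers, such as Pf4 with 1.08 to 2.71 RPM. Of the 5 tested, 0 rose and 1 fell at day 4, and 0 rose and 0 fell at day 18 against day 0. The part of these cells in the values of Meis1 and Cd34 was not tested.

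Other regulators of blood progenitors gave a mixed picture. Of 25 such genes 22 were listed and 19 tested. At day 4, 5 rose and 1 fell, where 5.49% of all tested genes rose and 6.63% fell. At day 18 against day 0, 3 rose and 4 fell, where 18.0% of all rose and 17.2% fell. Between day 4 and day 18, 3 rose and 6 fell, where 13.9% of all rose and 12.1% fell. Medians were 0.10, -0.10 and -0.03. With library totals 4 rose and 2 fell at day 18 against day 0. Lyl1, a helix-loop-helix factor of progenitors, rose at day 4 (0.20 ± 0.0349, adjusted p = 0.000254) and fell from there to day 18 (-0.31 ± 0.0349, adjusted p = 8.85e-08). Lmo2, its partner in transcription complexes, fell between day 4 and day 18 (-0.31 ± 0.0513, adjusted p = 3.15e-05), as did Hlf, a stem cell factor (-0.68 ± 0.145, adjusted p = 0.000679). The Ets factor gene Erg fell at day 18 against day 0 (-0.33 ± 0.0474), and the corepressor gene Cbfa2t3 rose at day 4 (0.64 ± 0.121) and day 18 (1.11 ± 0.121). Gata2, singled out after its values were seen, went from 0.991 and 0.537 RPM at day 0 to 2.48 and 2.60 RPM at day 4, with 0.399 and 0.752 RPM at day 18. Gata2 serves stem cells and also mast cells and basophils, whose summed markers had the same order of days. Among those markers Gata1 differed, with its highest values at day 18 (2.69 and 2.21 RPM). Gata1 is also 1 of 10 red cell (erythroid) markers. The sum of these was 246 to 260 RPM at day 0, 141 to 144 at day 4 and 382 to 392 at day 18. Of the 8 tested, 0 rose and 5 fell at day 4, and 5 rose and 0 fell at day 18 against day 0. The part of red cell precursors in these levels was not tested.

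Of 18 tested progenitor surface genes, 5 rose and 1 fell at day 4, and 9 rose and 2 fell at day 18 against day 0, with medians of 0.21 and 0.17. The total of 6 at day 4 was 3 without day 4 A. Several of these are receptors that mature myeloid cells also carry. Csf2rb, the shared receptor chain for interleukin 3 and GM-CSF, rose by 0.70 ± 0.0317 at day 18 (adjusted p = 7.95e-16), and Cd93, a membrane lectin-like protein, by 0.81 ± 0.0749 (adjusted p = 1.56e-09). Prom1, which encodes CD133, fell by 0.34 ± 0.0464 at day 18 (adjusted p = 2.07e-06). Of 16 factors of myeloid commitment, 8 rose and 2 fell at day 4, and 11 rose and 2 fell at day 18 against day 0, with medians of 0.20 and 0.61, where 5.49% and 18.0% of all tested genes rose. Irf8, a monocyte lineage factor, rose by 0.50 ± 0.0672 at day 4 and 1.09 ± 0.0672 at day 18, and Cebpa, needed for the first granulocyte and monocyte progenitors, by 0.46 ± 0.0581 and 0.75 ± 0.0581.

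**Figure D4:**
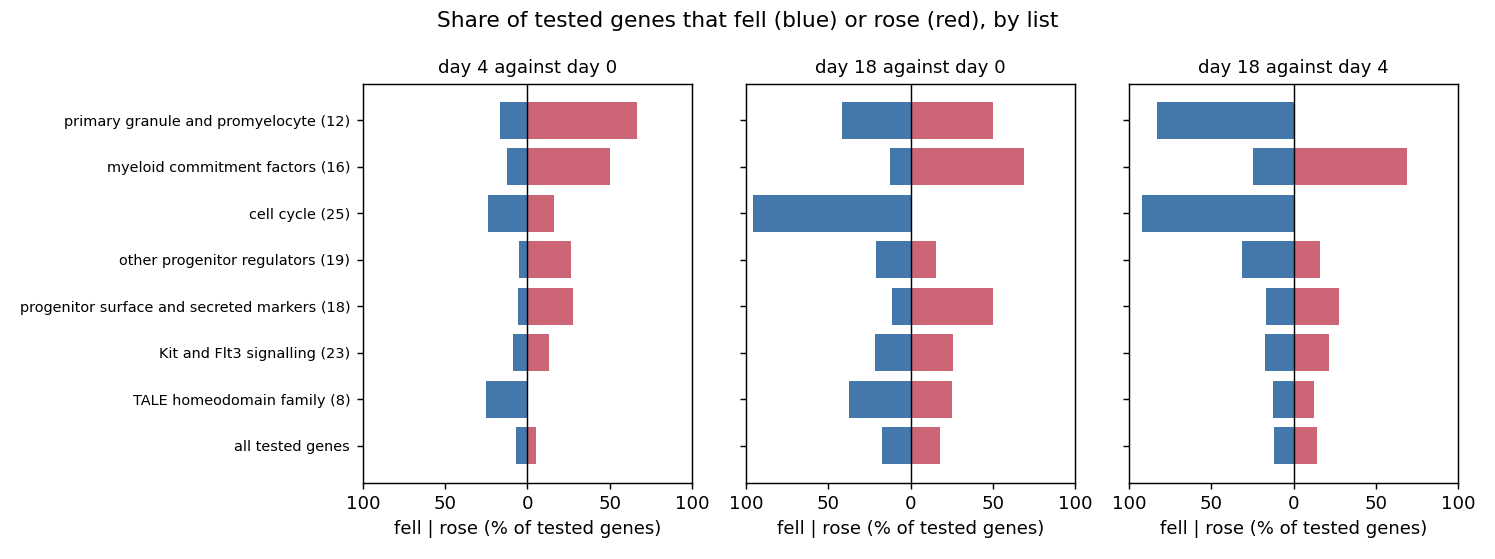
Percent of the tested genes of 7 lists that fell (bars to the left, blue) or rose (to the right, red) by limma in each comparison, with the number tested in brackets and all 14304 tested genes in the lowest row. Genes of the primary granule and promyelocyte list rise at day 4 (8 of 12) and fall from day 4 to day 18 (10 of 12), and 24 of 25 cell cycle genes fall at day 18 against day 0.

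Over the 6 progenitor genes, 1 rose and 0 fell at day 4 against day 0, where 12.1% of all 14304 tested genes were called, 5.49% higher and 6.63% lower. At day 18 against day 0, 1 rose and 1 fell, where 35.2% of all tested genes were called, 18.0% higher and 17.2% lower. At day 18 against day 4, 0 rose and 2 fell, where 26.0% were called, 13.9% higher and 12.1% lower. These counts are near the background shares and say nothing particular about the 6 genes. By value alone all 6 were higher at day 4 than at day 0, with a median of 0.36 against 0.01 over all genes. Only Myb was called there, and without day 4 A the values of Kit (-0.05) and Cd34 (-0.13) were negative. The share of all tested genes higher by value was not counted. By value 4 of 6 were higher at day 18 than at day 0, with a median of 0.22 against 0.02. After scaling, libraries did not overlap for 3 of the 6 at day 4 against day 0 (50.9% of all tested genes), 6 of 6 at day 18 against day 0 (66.5%) and 4 of 6 at day 18 against day 4 (58.8%). Scaling by library totals changed how the calls over all genes divided: 73.2% of the called genes were then higher at day 4, against 45.3% with TMM, and 70.7% against 51.2% at day 18 against day 0. The first 2 comparisons share the day 0 libraries. With 1 spread assumed for genes of every level, no gene of the 14304 passed at day 4 against day 0, and of the 6 genes only Myb passed at day 18 against day 4. Without that setting, 3473 genes had an unadjusted p under 0.05 at day 4.

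Genes with the most similar pattern over the 6 libraries were found by the Euclidean distance between centred log2 levels. For Myb they were Actr5 (distance 0.0825), Mogat2 (0.0858) and Plekhg3 (0.0881), and for Kit they were Agk (0.0426), Marchf5 (0.0630) and Ppp4r1l-ps (0.0930). The nearest to Flt3 were Fv1 (0.265), Uckl1os (0.277) and Siglecg (0.288), and the nearest to Sox4 were Dipk1b (0.161), Ptprcap (0.180) and Klrk1 (0.232). Cd34 was nearest to Aco1 (0.145), Tmem147 (0.146) and Ccdc50-ps (0.150). Meis1, whose counting error is widest, had no close match, with Kifap3 at 0.419, St6galnac6 at 0.465 and Steap4 at 0.465. These names are a description only. None of the other 5 progenitor genes was among the nearest 3 of any of the 6.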

How the data were processed

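Values were read from 1 deposited table with a column per library. Its name speaks of counts, but the deposited values are RPKM: times the gene span in kilobases, each column sums to 1000000. The submitters' processing notes name STAR 2.5.3a and mm10, and no source used here gives the counter, its strand setting, the annotation or the gene filter. RPM was RPKM times span, and steps between low values gave the reads per library (80.4% to 81.7% of genes under 100 reads were whole within 0.05 reads).

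Genes were tested if 2 libraries reached 0.453 RPM, which is 10 reads at the median library size, with at least 15 reads in all. Log2 of TMM-scaled RPM plus 0.1 was compared with limma 3.58.1 (R 4.3.3), 1 model of 6 libraries, a spread trend and robust moderation, with Benjamini-Hochberg adjustment over all tested genes and calls under 0.05. The fold change of a low gene is understated on the log2(RPM + 0.1) scale, and p-values measure the spread between libraries, which may be technical. The fit was tested on simulated data in which only well-covered genes were changed. That test does not cover genes with as few reads as Cd34, Flt3, Sox4 and Meis1, or changes as small as those of Myb. Members and lists were chosen with earlier results of these data known. Besides the 6 genes, those named are up to 3 called genes per list and comparison with the smallest p and a mean log2 level of at least 1, whole small families and ligands, and the 3 nearest by pattern. Some genes that this rule picks are given by count only or are not reported here, and some genes outside it, Gata2 among them, are named for their markers or reads. Annotation was GENCODE M21 and promoters RefSeq, both of the mm10 (GRCm38) assembly. Python 3.11.15, pandas 2.3.3 and matplotlib 3.10.9 were also used.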

Additional observations from a re-analysis of the deposited data

Results flagged for a closer look

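The change from day 0 differed between day 4 and day 18 for Myb and for Flt3, by the direct test of day 18 against day 4, in which the shared day 0 libraries cancel. For Myb the difference was -0.39 (limma, adjusted p = 2.10e-08), and both day 18 libraries were lower than both of day 4. For Flt3 it was -0.79 (adjusted p = 0.0201), again with both day 18 libraries lower. Groups of 2 libraries are too small to test for an outlying library.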

How the results depend on the processing

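The 15 alternatives changed scaling, pseudocount, filter, spread model or unit, or left out a library, and those on lists and other named genes were added after seeing the data. Of the fold changes of the 6 genes, 251 kept direction and side of the threshold, 15 lost a call, 1 gained one and 3 reversed. With 1 spread for all levels, 0 genes were called at day 4 against day 0, 2646 at day 18 against day 0 and 1353 at day 18 against day 4, with 0, 0 and 1 of the 6 genes among them. With log2 of TMM-scaled RPKM plus 0.1 in place of RPM the counts were 95, 3377 and 2132, with 0, 0 and 1 of the 6. In all libraries the RPKM of Cd34, Flt3 and Meis1 lay under that added 0.1. Why these settings gave fewer calls was not tested. Leaving out 1 library gave 915 to 1581 called genes at day 4 against day 0, with 915 without day 0 B and 1001 without day 0 A. Of the 6 genes, 0 to 2 were then called at day 18 against day 0 and 1 to 2 at day 18 against day 4. Values that reversed were those of Kit at day 4 (-0.0495 to 0.238, lowest without day 4 A) and from day 4 to day 18 (-0.0870 to 0.204, lowest without day 4 B), and of Cd34 at day 4 (-0.127 to 0.379, lowest without day 4 A), none of them called.

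Column letters did not pair libraries: deviations from the group means correlated at -0.0179, 0.0018 and -0.0419 over genes. A replicate block by letter gave 1657, 4931 and 3662 called genes, with 1, 2 and 2 of the 6, and ended the call of Mybl1 at day 18 against day 4 (adjusted p = 0.0510). The counting error of the 4 low genes and 2 libraries a group limit what can be seen.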
